A study of Danio rerio with 20 samples.

Results

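Transcription factors of the oligodendrocyte lineage were chosen by name and were 9 of the 31743 genes in the count tables. The 7 described here are olig1, olig2, sox10, nkx2.2a, sox6, myrf and tcf7l2, each matched by its exact name. Gene expression was measured by sequencing the 3' ends of transcripts in oligodendrocyte precursor cells (OPCs, the glial cells from which myelin-forming oligodendrocytes arise) sorted from zebrafish, in 20 libraries that formed 4 groups of 5. The 4AP group came from fish given 4-aminopyridine, a potassium channel blocker that raises neuronal firing, for 16 h, and the 4AP control group was its control. The demyelination group came from fish in which myelin loss was induced for 16 h with capsaicin acting on the TRPV1 channel, and the demyelination control group was its control. The age and genotype of the fish, the reporter used for sorting and the treatment of each control are not given in the sources used here, and nothing states whether the 5 libraries of a group came from separate animals or pools. The p-values below therefore measure the spread between these libraries, which may be technical. The series is titled for a contrast between adaptive and regenerative myelination, and each treatment was set against its own control.

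Oligodendrocytes are specified from neural progenitors by the bHLH factor Olig2, with Nkx2.2 and the SoxE factor Sox10 acting as partners. In mouse, Sox6 is known for its part in the precursor stage, where it holds back terminal differentiation. Differentiation then needs Myrf, which switches on myelin genes together with Sox10, and passes through a stage marked in mouse by Tcf7l2, the nuclear partner of β-catenin in Wnt signalling.

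Depth differed widely. The 4AP controls held between 163158 and 897620 total gene reads and the 4AP group between 356494 and 1744483. The range was 1180 to 282966 for the demyelination controls, and 38314 to 3528970 for the demyelination group. Demyelination control 1, with 1180 reads, had 0 reads of all 7 genes. There 3 reads, taken as the least that counts as detection, would be 2542 CPM (counts scaled to the same library total), so this library says nothing about these genes, and results of the demyelination experiment are also given without it. The 4AP libraries and 4AP control 5 shared a name prefix in the deposited tables, 4AP controls 1 to 4 had another, and all demyelination libraries and their controls had one of their own. What the prefix stands for is not stated. Exons held 61.5% to 65.7% of all reads in 4AP controls 1 to 4, 79.5% in 4AP control 5 and 70.2% to 75.7% in the 4AP group.

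The OPC label was checked against markers. Of 12 OPC-stage genes, among them pdgfra and cspg4, each had reads in some library of every group. Single libraries had reads of 8 to 12 of them in the 4AP controls, 7 to 12 in the 4AP group and 0 to 10 in the demyelination controls. Demyelination 1 to 4 had reads of only 6, 6, 5 and 7, and demyelination 5, the deepest library, of all 12. Their summed level was 1122 to 1592 CPM in the 4AP controls, 1380 to 1859 CPM in the 4AP group and 319 to 940 CPM in the demyelination group. In the demyelination controls it was 0 in control 1 and 1000 to 1201 CPM in controls 2 to 5, above every demyelination library. One gene, fabp7a, carried much of these sums, with 674 to 1114 CPM in the 4AP controls. The 16 oligodendrocyte-stage genes with an entry summed to 2010 to 4105 CPM in the demyelination controls and 720 to 2333 CPM in the demyelination group. They summed to 779 to 1784 CPM in the 4AP controls and 1340 to 2667 CPM in the 4AP group. These sums were above those of the OPC-stage genes in every library except 4AP controls 1 and 5 and 4AP library 3. Markers of other cells were present too. The 7 exocrine pancreas genes summed to between 3110 and 16136 CPM over all 20 libraries, and the 6 skin genes to between 847 and 9450 CPM, so the libraries also held RNA from cells outside the lineage.

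Positions were taken from the deposited tables and are on the zebrafish build GRCz11, per the submitters' processing notes. olig1 (ENSDARG00000040948) lies at chr9:32728653-32730487 and olig2 (ENSDARG00000040946) at chr9:32751428-32753535, neighbours on the minus strand with 2 exons each. sox10 (ENSDARG00000077467) lies at chr3:1492174-1501255 on the plus strand, and nkx2.2a (ENSDARG00000053298) at chr17:42208623-42218652 on the minus strand. sox6 (ENSDARG00000015536), at chr7:27250012-27454645 on the plus strand, spans 204634 bp with 33 annotated exons from 10 transcripts. myrf (ENSDARG00000078676) lies at chr25:3897907-3979583 and tcf7l2 (ENSDARG00000004415) at chr12:30977736-31103906, both on the minus strand.

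The genes differed in how many reads stood behind them and in where in the gene these lay. Over the 20 libraries sox6 had 2660 total gene reads, tcf7l2 1326, olig2 813, myrf 458, nkx2.2a 392, sox10 368 and olig1 365. All reads of olig2 lay in exons, as did 97.5% of those of olig1, 98.0% of nkx2.2a and 88% of sox10. In the 3 long genes with many exons a large part lay in introns: exons held 53.1% of the reads of tcf7l2, 42.6% of sox6 and 27.3% of myrf. Total gene reads of these 3 thus mix spliced and unspliced RNA, and reads of any other transcript lying in their introns would be counted with them. In bulk libraries a lower level can come from fewer cells of the lineage or from less RNA per cell, and these cannot be told apart.

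**Figure D1:**
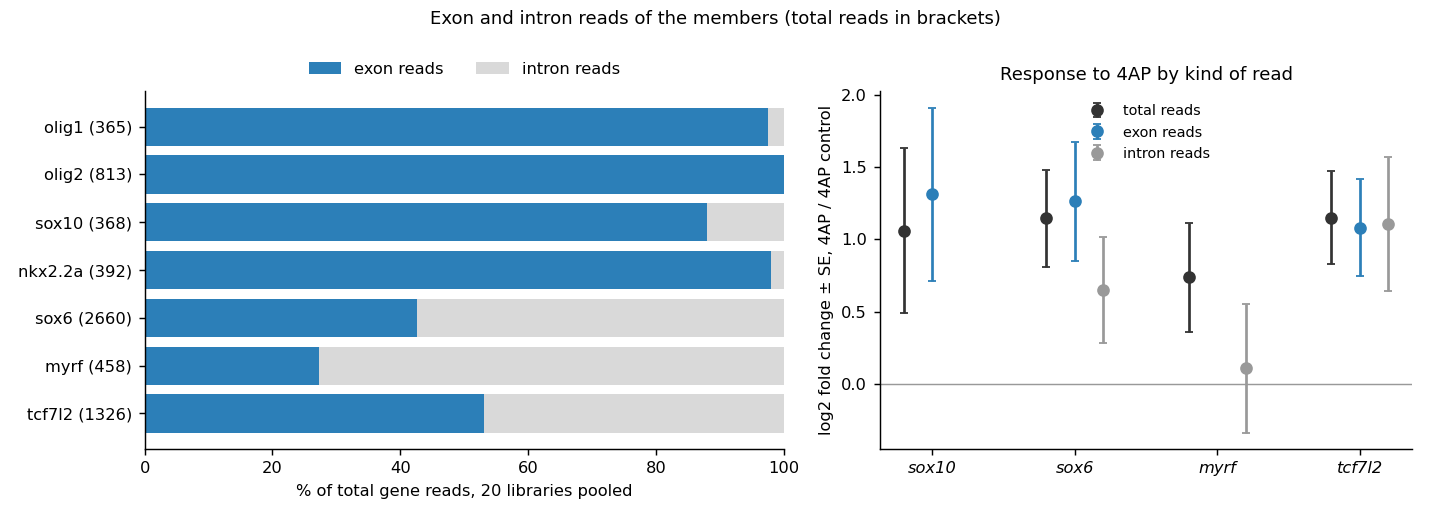
Left, the share of reads in exons and introns for each gene, with the total gene reads over 20 libraries in brackets. Right, log2 fold change ± SE of the 4AP group against its control (n = 5 each) from total, exon and intron reads, where the gene passed the filter. Each fit was scaled by its own kind of read, so the values of a gene are not on 1 scale. sox6 was 1.26 from exon reads and 0.65 from intron reads, while tcf7l2 was 1.08 and 1.11.

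4AP was compared with its control to see which of the lineage factors differ after 16 h of raised neuronal activity. sox6 and tcf7l2 were higher in the 4AP group, by 1.15 ± 0.34 (SE, n = 5 each) and 1.15 ± 0.32 on the log2 scale. For olig1 and olig2 the fold changes were smaller than their errors. sox10 and myrf had positive fold changes that did not pass the test.

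The test was edgeR's quasi-likelihood test on total gene reads, with adjusted p under 0.05 as the threshold. The 7 genes passed the filter on low counts and 2 were called, both higher. Across all 5161 genes tested, 13.1% were called, 2.98% as higher and 10.1% as lower. 5 of the 7 genes had a positive log2 fold change, against 57.1% of all genes tested, and the median of the 7 was 0.74 against 0.19 over all genes tested. The 7 were chosen with earlier results of these data known, and their shared direction was not tested.

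tcf7l2 measured 34, 37.2, 33, 18.4 and 62.4 CPM in 4AP controls 1 to 5, and 89.8, 117.2, 102.7, 116.9 and 111.5 CPM in 4AP libraries 1 to 5. The groups did not overlap, and 4AP control 5 was the highest control. The mean was 107.6 ± 11.6 CPM (SD, n = 5) against 37.0 ± 15.9 CPM, and the adjusted p from edgeR was 0.0282.

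sox6 measured 34, 81.2, 113.2, 128.7 and 161.5 CPM in the 5 controls and 187.9, 245.2, 264.0, 337.1 and 359.3 CPM in the 5 4AP libraries. Here too every 4AP library lay above every control, with 4AP control 5 nearest to them. The mean was 278.7 ± 69.8 CPM (SD, n = 5) against 103.7 ± 48.5 CPM, and the adjusted p from edgeR was 0.0334. After TMM normalisation, which corrects for differences in library composition, both genes still had groups that did not overlap, as did 9.84% of all genes tested.

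Each of these calls depended on the model and on single libraries. With the name prefix as a term, sox6 fell to 0.61 and tcf7l2 to 0.61, both with an adjusted p of 0.999 from edgeR, and 0 of all genes were called. With the library total as a term, they were 0.77 and 0.74, at adjusted p of 0.548 and 0.534, again with 0 genes called. Within the prefix that the 4AP libraries share, the single control was below all 5 4AP libraries for both genes. After TMM normalisation it was at 164.7 CPM for sox6 and 63.6 CPM for tcf7l2, against 166.2 and 79.4 CPM in 4AP library 1, the lowest. A single control gives no spread to test this against. The other prefix held controls only, so the prefix and the treatment can be told apart only through 4AP control 5. When single libraries were left out, tcf7l2 was no longer called in 4 of 10 fits, those without 4AP control 1, 2, 3 or 4, with adjusted p up to 0.0787 from edgeR. sox6 was no longer called in those 4 and without 4AP library 4 or 5, with adjusted p up to 0.0914. The fold change in these 10 fits ran from 0.93 to 1.44 for sox6 and from 1.00 to 1.47 for tcf7l2.

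**Figure D2:**
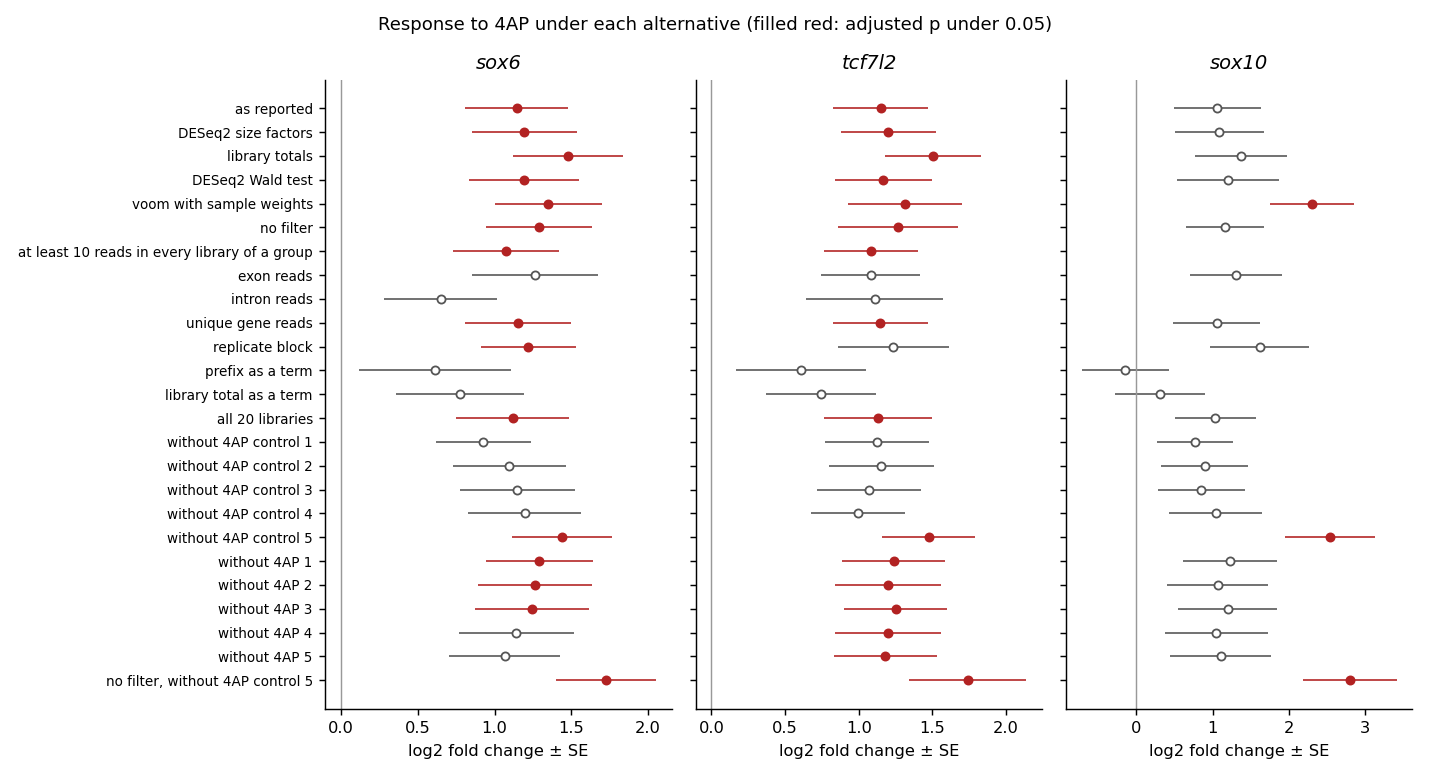
Log2 fold change ± SE of sox6, tcf7l2 and sox10 in the 4AP group against its control, as reported and under each alternative; filled red points have an adjusted p under 0.05. sox6 and tcf7l2 stay positive throughout, at 0.61 at the lowest, whereas sox10 runs from -0.14 with the prefix as a term to 2.80 with no filter and no 4AP control 5.

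The responses were also fitted from exon and intron reads alone, each scaled by its own library totals and TMM factors. Fold changes from exon and intron reads are therefore on different scales, and their sizes cannot be set against each other. From exon reads sox6 was 1.26 ± 0.41 (adjusted p 0.0690 from edgeR), and from intron reads 0.65 ± 0.37 (adjusted p 0.295). tcf7l2 was 1.08 ± 0.34 from exon reads and 1.11 ± 0.46 from intron reads, with adjusted p of 0.0605 and 0.148. Neither gene was therefore called from either kind of read alone. Fewer genes were called over the whole table as well, 194 from exon reads and 165 from intron reads. Scaled by total gene reads, exon reads of sox6 were at 15.5 to 96.9 CPM in the controls and 98.2 to 174.4 CPM in the 4AP group. On that scale its intron reads were at 18.5 to 84.9 CPM and 89.8 to 184.9 CPM, so both kinds were higher. The exon share of sox6 reads was 48.9% ± 3.8 (SD, n = 5) in the 4AP group and 50.3% ± 16.1 in the controls, and the difference was within the spread (two-sided exact permutation test over libraries, p = 0.865, adjusted p = 1 over 1831 genes tested in the same way). For olig2 the exon share was 100% in all 10 libraries.

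sox10 measured 0, 6.8, 4.7, 18.4 and 43.4 CPM in the 5 controls and 25.2, 54.6, 36.4, 55.6 and 44.8 CPM in the 4AP libraries. The groups overlapped through 4AP control 5 alone. In the fit the log2 fold change was 1.06 ± 0.57, with an adjusted p of 0.198 from edgeR. Without 4AP control 5 it was 2.54 and passed the test (adjusted p 0.00239, edgeR), and voom with sample weights gave 2.30 (adjusted p 0.00311). Both fits called more genes over the whole table as well. Without 4AP control 5 the prefix and the 4AP treatment cannot be told apart. With the prefix as a term it was -0.14. The level of sox10 in controls 1 to 4 rests on 0, 2, 1 and 3 reads.

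myrf measured 16.9 to 34 CPM in the controls and 39.4 to 70.5 CPM in the 4AP group. These ranges did not overlap by library totals, where the share of all genes that part was not counted, but they did after TMM normalisation. The log2 fold change of 0.74 ± 0.38 did not pass the test (adjusted p 0.177, edgeR). Its intron reads, the larger part of its signal, gave 0.11 ± 0.44 when scaled by intron reads alone. Scaled by total gene reads, they were at 10.03 to 33.99 CPM in the controls and 28.6 to 53.3 CPM in the 4AP group. Those ranges overlapped. The level of myrf in controls 1 to 4 rests on 11, 5, 4 and 5 reads. Of these, 0, 2, 0 and 0 lay in exons. In control 5 exons held 15 of 24 reads, and the 4AP libraries had 6 to 30 exon reads each. nkx2.2a, with 16.7 to 37.2 CPM in the controls and 16.8 to 72.2 CPM in the 4AP group, had a log2 fold change of 0.40 ± 0.44 (adjusted p 0.536).

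olig2 was at 52.5, 77.8, 136.8, 159.4 and 73.5 CPM in the controls and at 89.8, 86.8, 90.1, 127.8 and 109.6 CPM in the 4AP libraries. The 4AP values lay inside the range of the controls. The means were 100.8 ± 17.6 and 99.99 ± 45.6 CPM (SD, n = 5 each), and the log2 fold change was -0.23 ± 0.32 (adjusted p 0.616, edgeR). For olig1 the means were 40.8 ± 13.9 and 37.8 ± 26.8 CPM, with a log2 fold change of -0.07 ± 0.47 (adjusted p 0.926). The sign of both turned with the scaling: by library totals they were 0.13 and 0.25. Library totals raised the median over all genes by 0.36, and turned 154 higher and 520 lower calls into 411 and 207, so sox6, tcf7l2 and sox10 had 1.48, 1.51 and 1.37 on that scale.

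A ratio of reads within a library does not depend on the scaling. tcf7l2 had 0.65, 0.48, 0.24, 0.12 and 0.85 reads per olig2 read in the 5 4AP controls and 1.00, 1.35, 1.14, 0.91 and 1.02 in the 4AP libraries. The groups did not overlap, by a small margin over 4AP control 5, and controls 3 and 4 held 7 and 3 tcf7l2 reads. The share of all genes that part in this way was not counted. sox6 had 0.65 to 1.04 reads per olig2 read in controls 1 to 4, 2.197 in control 5 and 2.09 to 3.28 in the 4AP group, so control 5 lay within the range of the 4AP libraries. For sox10 the ratio was 0 to 0.12 in controls 1 to 4, 0.59 in control 5 and 0.28 to 0.63 in the 4AP group.

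**Figure D3:**
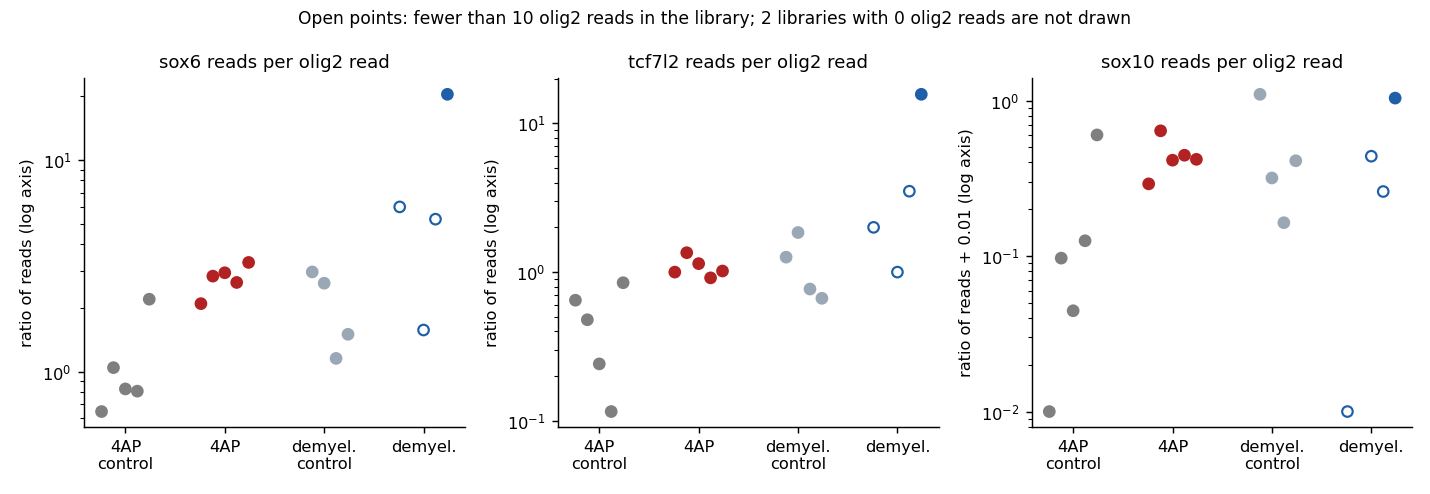
Reads of sox6, tcf7l2 and sox10 per read of olig2 in each library, on log axes (0.01 added for sox10 to show 0). Open points have fewer than 10 olig2 reads, and 2 libraries with 0 olig2 reads are not drawn. Demyelination 5 stands highest for sox6, at 20.4, and for tcf7l2, at 15.7, with most reads of both genes in introns.

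**Figure D4:**
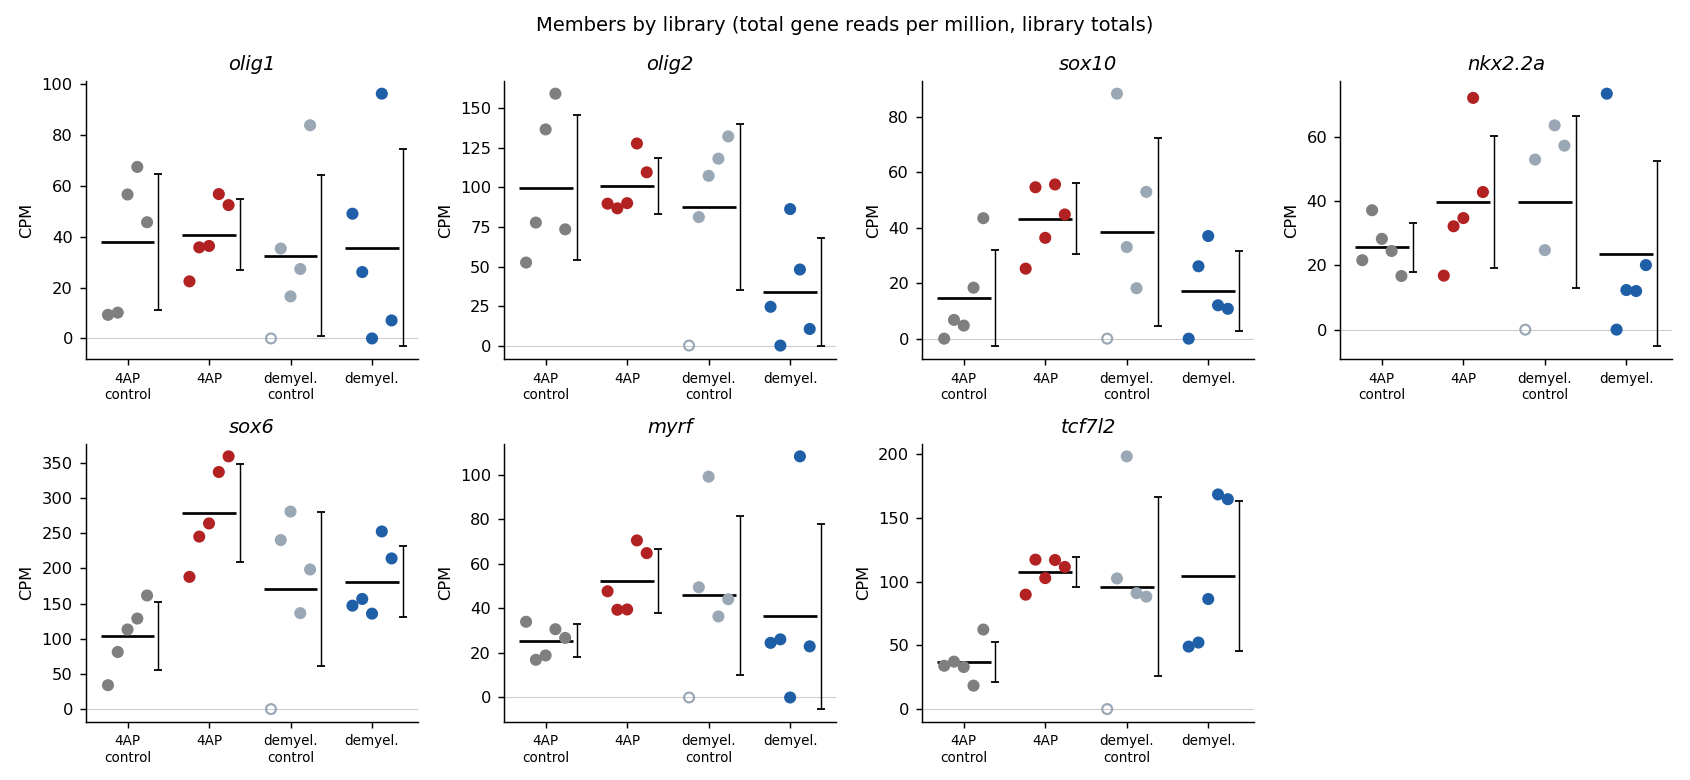
Level of each gene in every library, in CPM of total gene reads. Points are libraries in the order of their numbers, lines are group means and bars SD (n = 5); the open circle is demyelination control 1, which had 0 reads of every gene shown. The 4AP libraries lie above all 4AP controls for sox6, tcf7l2 and, on this scale but not after TMM normalisation, myrf. The share of all genes that part in this way by library totals was not counted. The ranges of olig2 overlap, at 0 to 86.3 CPM in the demyelination libraries and 81.3 to 132.3 CPM in demyelination controls 2 to 5.

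Demyelination was compared with its control for the early response of precursors to myelin loss. olig2 was at 24.5, 0, 86.3, 48.1 and 10.5 CPM in demyelination libraries 1 to 5, and at 81.3, 107.4, 118.2 and 132.3 CPM in controls 2 to 5. No member was called, and depth limited what could be tested: of the 7 genes only sox6 passed the filter, with a log2 fold change of 0.14 ± 0.36 (SE, n = 5 each; adjusted p 0.924, edgeR). Of 823 genes tested, 0 were called (0%), and 63.5% had a positive fold change. 78, or 9.48%, had an unadjusted p under 0.05, and DESeq2's Wald test called 5.

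The olig2 values rest on few reads. The demyelination libraries 1 to 4 held 1, 0, 7 and 4 reads of olig2 and library 5 held 37, while controls 2 to 5 held 23, 13, 13 and 30. The exact binomial 95% interval ran from 7.38 to 14.5 CPM in demyelination 5, the deepest library. In demyelination 3 it ran from 34.7 to 178 CPM, so the intervals of these libraries of 1 group did not overlap. They take each read as independent, and would be too narrow if copies of 1 molecule were counted. Demyelination 3 overlaps the controls and the others lie below them. The upper limits of the interval in demyelination 1, 2 and 4 were 137, 96.3 and 123 CPM, above the lowest of controls 2 to 5. The mean was 33.9 ± 34.4 CPM (SD, n = 5) in the demyelination group, 109.8 ± 21.6 CPM in controls 2 to 5, and 87.8 ± 52.5 CPM with control 1 included.

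In a fit with no filter, over 25772 genes, the log2 fold change of olig2 was -1.997 ± 0.63, with an unadjusted p of 0.00158 and an adjusted p of 0.468 from edgeR. Without control 1 it was -2.04, at an adjusted p of 0.345. sox10 was at -1.93 ± 0.69 (adjusted p 0.479), nkx2.2a at -1.38 ± 0.66 (0.706), olig1 at -0.96 ± 0.69 (0.847) and myrf at -0.83 ± 0.63 (0.859). tcf7l2, at -0.10 ± 0.54, and sox6, at -0.31 ± 0.55, were nearest to 0. None of these passed the test, and 7 of the 25772 genes did. Without control 1 the values were -1.96 for sox10, -1.40 for nkx2.2a, -1.005 for olig1, -0.85 for myrf, -0.14 for tcf7l2 and -0.40 for sox6, again with none called.

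sox10 was at 0, 26.1, 37.0, 12 and 10.8 CPM in the demyelination libraries and at 88.3, 33, 18.2 and 52.9 CPM in controls 2 to 5. nkx2.2a was at 73.5, 0, 12.3, 12 and 20.1 CPM against 53, 24.8, 63.7 and 57.3 CPM. Both sets of ranges overlapped, and the 73.5 CPM of nkx2.2a in demyelination 1 stands for 3 reads. olig1 ran from 0 to 96.2 CPM and myrf from 0 to 108.2 CPM in the demyelination group, each wider than the range of controls 2 to 5.

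sox6 and tcf7l2 had the most reads. sox6 was at 147.1, 156.6, 135.7, 252.6 and 214.2 CPM in the demyelination libraries and at 240.3, 280.8, 136.4 and 198.5 CPM in controls 2 to 5, with ranges that overlapped. tcf7l2 was at 49.0, 52.2, 86.3, 168.4 and 164.6 CPM against 102.5, 198.2, 91.0 and 88.2 CPM. Without control 1 tcf7l2 passed the filter too, with a log2 fold change of 0.35 ± 0.41 (adjusted p 0.717, edgeR), and sox6 was at 0.15 ± 0.33 (adjusted p 0.867).

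Demyelination 5 held 3528970 reads, more than all other libraries of its experiment together, and its proportions stood apart. It had 756 reads of sox6 and 581 of tcf7l2 but 37 of olig2 and 38 of sox10. This gave 20.4 sox6 reads and 15.7 tcf7l2 reads per olig2 read, against 1.15 to 2.96 and 0.67 to 1.85 in controls 2 to 5. Most of the sox6 and tcf7l2 reads of demyelination 5 lay in introns. Exons held 195 (25.8%) and 235 (40.4%) of them, and all 37 of olig2. In controls 2 to 5 pooled, exons held 45.7% of the sox6 reads and 57.8% of the tcf7l2 reads. In the other 3 demyelination libraries with an olig2 read the ratios were 1.57 to 6 and 1 to 3.5, on at most 7 olig2 reads.

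Marker levels in the same libraries were as follows, and no gene of any marker list was called. The OPC-stage genes summed to 319 to 940 CPM in the demyelination group and 1000 to 1201 CPM in controls 2 to 5. Of this list 2 genes were tested, 1 with a positive fold change, and 0 were called. The oligodendrocyte-stage genes, such as mbpa and plp1b, summed to 720 to 2333 CPM in the demyelination group and 2010 to 4105 CPM in its controls. The 6 of them tested had negative fold changes with 0 called, while 63.5% of all genes tested had a positive one. In demyelination 3, astroglial markers summed to 4231 CPM, of which glula alone gave 3885 CPM, against 351 to 686 CPM in the other 4. The neuron list summed to 440 to 1331 CPM in the demyelination group and to at most 891 CPM in the controls. One gene, rbfox3a, gave 1005 of 1152 CPM in demyelination 1, 1044 of 1331 CPM in demyelination 2 and 500 of 891 CPM in demyelination control 4. The part of these markers in the values of the lineage factors was not tested.

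A model of all 20 libraries then tested whether the response to 4AP exceeded the response to demyelination, so that a positive difference stands for the larger or less negative 4AP response. The 7 genes passed the filter and 0 were called, while 1.66% of the 3981 genes tested were called, 14 as higher (0.352%) and 52 as lower. At an unadjusted p under 0.05 there were 652 genes, 16.4% of those tested, and among the members these were sox10, olig2, nkx2.2a and sox6. All 7 differences were positive, against 50.9% of all genes tested, with a median of 1.31 against 0.03. This is a description only: the 7 share the same libraries and were chosen with earlier results of these data known.

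sox10 had the largest difference among the 7, at 2.77 ± 0.91 on the log2 scale (unadjusted p 0.00471, adjusted p 0.106, edgeR). It passed the test with voom and sample weights (3.92, adjusted p 0.00293), without 4AP control 5 (4.27, adjusted p 0.00114) and without demyelination 3 (3.26, adjusted p 0.0405). Voom called more genes over the whole table as well, and without 4AP control 5 the prefix and the 4AP treatment cannot be told apart. olig2 had a difference of 1.56 ± 0.70 (adjusted p 0.247), which passed with voom (2.04, adjusted p 0.0155) and without demyelination 3 (2.53, adjusted p 0.0348) but was 0.72 without demyelination 5. nkx2.2a was at 1.55 ± 0.74 (adjusted p 0.286), myrf at 1.31 ± 0.73 (0.373), sox6 at 1.15 ± 0.54 (0.282), tcf7l2 at 0.97 ± 0.54 (0.491) and olig1 at 0.66 ± 0.97 (0.817). For olig1 the sign turned to -0.30 without demyelination 5. Without demyelination control 1 the 7 differences ran from 0.76 (olig1) to 2.92 (sox10), with adjusted p from 0.102 to 0.740 from edgeR and 0 called. Library totals raised the median over all genes by 0.49 and turned the 14 higher and 52 lower calls into 60 and 10.

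**Figure D5:**
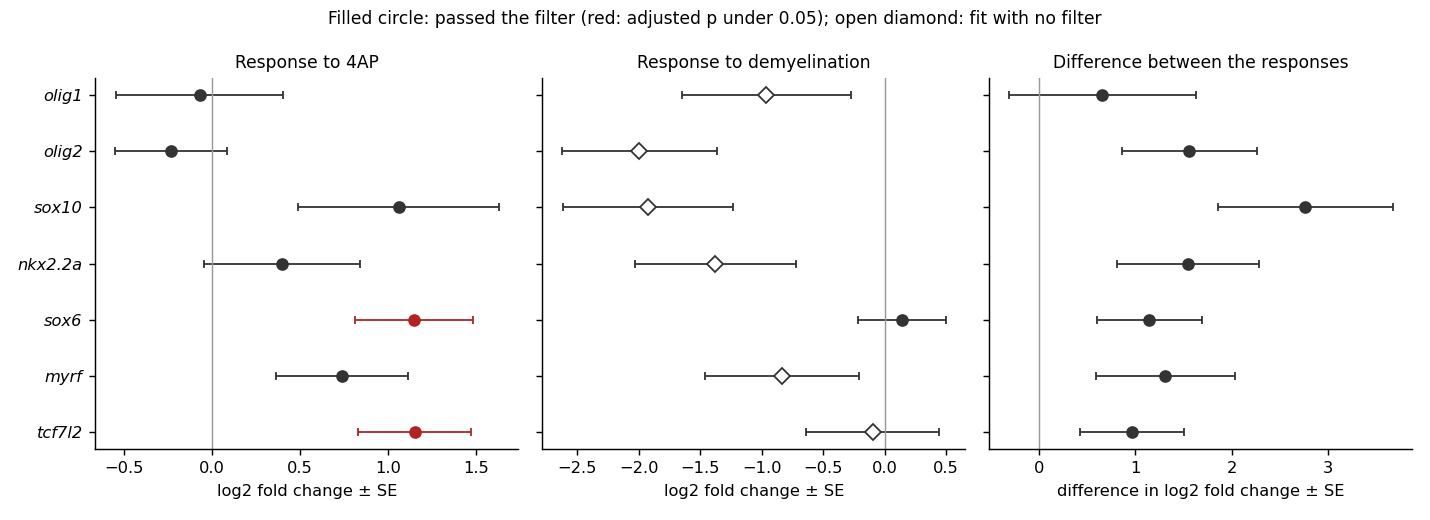
Log2 fold change ± SE of each gene in both responses and the difference between them (n = 5 per group). Filled circles passed the filter on low counts, with red for an adjusted p under 0.05, and open diamonds come from the fit with no filter; sox6 and tcf7l2 in the 4AP response, at 1.15 each, are the only red points.

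Over all 20 libraries the 4AP group had the highest mean level of all 7 genes. Without demyelination control 1 the demyelination controls had the highest mean for 5 of them, all but olig1 and sox6. In each of the 7 genes, groups next to each other in the order of means had ranges that overlapped, with and without that library. By mean level the 4AP controls were lowest for sox10 (14.7 CPM), sox6 (103.7 CPM), myrf (25.4 CPM) and tcf7l2 (37.0 CPM). For tcf7l2 the 4AP controls lay at 18.4 to 62.4 CPM, and demyelination controls 2 to 5 at 88.2 to 198.2 CPM, next to the 4AP group at 89.8 to 117.2 CPM. sox6 was likewise at 34 to 161.5 CPM in the 4AP controls and 136.4 to 280.8 CPM in demyelination controls 2 to 5. The controls came from different experiments and were not tested against each other.

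Other regulators of the lineage were taken from a list of 68, of which 65 had an entry. In the 4AP comparison 40 were tested, 1 was called higher and 1 lower, and 30 had a positive fold change, with a median of 0.67. Of all 5161 genes tested, 2.98% were called higher, 10.1% lower and 57.1% had a positive fold change, with a median of 0.19. The one called higher was tcf7l1b, a paralogue of tcf7l2 that in the absence of Wnt signals acts as a repressor. It measured 27.8, 37.2, 70.7, 18.4 and 125.9 CPM in the controls and 210.4, 164.7, 129.6, 237.3 and 215.4 CPM in the 4AP libraries, a log2 fold change of 1.40 ± 0.39 (adjusted p 0.0286, edgeR). All 4AP libraries were above all controls by library totals, by a small margin over 4AP control 5, though not after TMM normalisation. How many of all genes part by library totals was not counted. The one called lower was klf9, a thyroid hormone target, at 24.5 to 84.9 CPM in the controls and 14.2 to 28.1 CPM in the 4AP group (-1.71 ± 0.42, adjusted p 0.0170). With the prefix as a term tcf7l1b was at 0.42 and klf9 at -0.47, both with an adjusted p of 0.999 from edgeR. With 1 library left out at a time tcf7l1b was not called in 7 of 10 fits and klf9 in 1.

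In the demyelination comparison 9 of the other regulators passed the filter and 0 were called. The 3 with the smallest p were thrab, a thyroid hormone receptor (1.08 ± 0.42), tcf3b, an E protein (2.31 ± 1.05), and zeb2a, in mouse a promoter of oligodendrocyte differentiation (-1.03 ± 0.50), each with an adjusted p of 0.459 from edgeR. Introns held 99.1% of the reads of thrab, 52.9% of those of zeb2a and 5.2% of those of tcf3b, so the value of thrab says little about its spliced RNA. The fold change of tcf3b turned to -0.36 without demyelination 3, the library with high glula. For the difference 34 were tested and 0 called. zeb2a was nearest to the threshold, at 2.70 ± 0.78 (adjusted p 0.0683), followed by id2b, an inhibitor of bHLH factors (-1.79 ± 0.68, adjusted p 0.166), and sox2, a progenitor factor (1.54 ± 0.74, adjusted p 0.288).

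Stage markers gave a context for the factors. The share of all genes tested for 4AP that were called was 2.98% as higher and 10.1% as lower. In the 4AP comparison 5 OPC-stage genes were tested and 2 called, both higher: tnr, an extracellular matrix protein of precursors (1.78 ± 0.44, adjusted p 0.0170, edgeR), and cspg4, the NG2 proteoglycan (1.42 ± 0.41, adjusted p 0.0323). Of 12 oligodendrocyte-stage genes 2 were called, also higher: nfasca, a cell adhesion molecule (1.67 ± 0.49, adjusted p 0.0333), and ugt8, an enzyme of myelin lipid synthesis (1.51 ± 0.46, adjusted p 0.0397). With the prefix as a term none of these 4 was called, with tnr at 1.07, cspg4 at 1.71, nfasca at 0.53 and ugt8 at 1.23. Without 4AP control 5 nfasca was at 2.93. With single libraries left out, nfasca was not called in 8 of 10 fits, and cspg4 and ugt8 in 7 of 10 each. Introns held 77.3% of the reads of tnr and 95.9% of those of cspg4. Some markers of other cells were called in the same comparison. The 2 microglial genes tested and 4 of 6 exocrine pancreas genes were called lower, as was 1 gene each of the neuron, astroglia, skin and cell division lists, and their part in the response of sox6 and tcf7l2 was not tested. The summed level of the neuron list was 297 to 735 CPM in the 4AP controls and 539 to 808 CPM in the 4AP group. In 4AP controls 1 to 4 rbfox3a alone gave 207 to 231 CPM of it.

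tnr was also the single stage marker called for the difference between the responses, at 2.46 ± 0.66 (adjusted p 0.0435, edgeR). It rose from 9.27 to 43.4 CPM in the 4AP controls to 49.0 to 161.1 CPM in the 4AP group, and was at 0 to 108.2 CPM in the demyelination group and 79.4 to 145.5 CPM in demyelination controls 2 to 5. With 1 library left out at a time, 16 of 20 fits no longer called it, and the adjusted p reached 0.0942. Without demyelination control 1 it was 0.0504.

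As a description, each gene was compared with the other 5160 genes tested over the 10 libraries of the 4AP experiment, by Pearson's correlation of TMM-normalised log2 CPM. These libraries hold both groups and share differences in depth and composition. The 2 genes nearest to tcf7l2 were epha3 (0.988) and ptprk (0.982), and those nearest to sox6 were bcr (0.978) and celf2 (0.972). snx6 (0.985) and nr1d2b (0.982) were nearest to sox10, brinp3a.1 (0.953) and ncam1b (0.911) to olig1, and ptprdb (0.940) and CR786577.1 (0.934) to olig2. rplp0 (0.875) and luzp2 (0.816) were nearest to nkx2.2a, and ankrd28b (0.925) and TMEM132C_2 (0.918) to myrf. Correlation with the log2 library total was 0.878 for tcf7l2, 0.691 for sox10 and 0.666 for sox6, but 0.142 for olig1 and -0.388 for olig2. Among the members, sox10 and sox6 were closest to each other (0.923), followed by olig1 and olig2 (0.702), and olig2 and tcf7l2 were farthest apart (-0.527).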

How the data were processed

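Libraries of transcript 3' ends were made with a QIAseq UPX kit from 1 ng or 4 ng of RNA, per the labels' protocols; the amount used for a given library is not given. The authors deposited counts of total, exon, intron and unique gene reads for 31743 genes per library, per the file headers. Exon and intron reads add up to the total gene reads in every table. The aligner, annotation release, strand and use of molecular identifiers are not given in the sources used here, so reads of overlapping or antisense genes and copies of 1 molecule may have been counted, and intervals and limits cover counting error only. Coordinates are on GRCz11 per the submitters' processing notes.

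Total gene reads were filtered per comparison with filterByExpr (minimum count 10, minimum total 15), normalised with TMM and fitted with edgeR 4.0.16 (robust quasi-likelihood; limma 3.58.1, R 4.3.3). Benjamini-Hochberg adjustment ran over all genes tested, with calls at an adjusted p under 0.05. CPM values were scaled by the total gene reads of the library unless TMM is named. Exon shares used libraries with at least 10 reads of the gene, in at least 4 per group, and a two-sided exact permutation test over 252 splits (Python 3.11.15, scipy 1.17.1). The test was tried on simulated counts.

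The members and all lists were chosen with earlier results of these data known. 2 of the 9 members are not reported here. Named besides the other 7 were all called genes of the list of other regulators (up to 12 per comparison, or the 3 smallest p where 0 were called), all called stage markers (up to 8), and the 2 genes most like each member. Alternatives were DESeq2 1.42.0 (size factors or Wald test), library totals, voom with sample weights, no filter, a filter of 10 reads in each library of 1 group, exon, intron or unique reads, a replicate block, the prefix or the library total as a term, all 20 libraries in 1 fit, and leaving out each library. Combinations of no filter or exon reads with left-out libraries were added after seeing the data. Chi-square tests of the counts of library pairs within a group found no difference for 1 pair, demyelination controls 1 and 2. Control 1 allowed only 14 classes to be compared, the last of which pooled all genes with too few expected reads. Values are given without control 1. Gene symbols of 68 further regulators and the marker lists were matched by name or identifier.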

Additional observations from a re-analysis of the deposited data

Results flagged for a closer look

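Libraries far from the others of their group were sought in each of the 7 genes and 4 groups with Dixon's test at its 95% level, which chance alone flags in about 1 of 20 groups. 2 of 28 groups were flagged, both for the highest library. nkx2.2a was at 73.5 CPM in demyelination 1, on 3 reads. myrf was at 108.2 CPM in demyelination 4, on 9 reads, against 0 to 26.1 CPM in the other 4 demyelination libraries.

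The responses to 4AP and demyelination differed for the OPC-stage marker tnr by 2.46 on the log2 scale (edgeR, adjusted p 0.0435). By library totals every 4AP library was above every 4AP control, though not after TMM normalisation. The share of all genes that part by library totals was not counted. The ranges of the demyelination group and its controls overlapped. Of the 7 lineage factors tested, 0 had a called difference.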

How the results depend on the processing

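For 4AP, 674 genes were called. The count was 2201 with voom, 194 with exon reads, 165 with intron reads, 0 with the prefix as a term, 0 with the library total as a term, 6592 with no filter and without 4AP control 5, and 271 to 2140 when 1 library was left out (2140 without 4AP control 5). Same-numbered libraries did not deviate together (correlations -0.04 to 0.11 for 4AP and -0.10 to 0.09 for demyelination, with 1 of 5 treated libraries closest to its own number in each), so the numbers do not pair them; the replicate block gave 448 calls for 4AP, with tcf7l2 at 1.23 (adjusted p 0.0522, edgeR). For demyelination the count of 0 became 5 with DESeq2's Wald test, 7 with no filter, 13 with no filter and no demyelination control 1, and 0 to 1 when 1 library was left out. For the difference 66 became 104 with DESeq2's Wald test, 646 with voom, 114 with no filter, 39 with exon reads, 0 with the prefix as a term, 105 with no filter and no demyelination control 1, 5 with neither demyelination control 1 nor demyelination 5, 28 with exon reads and no demyelination control 1, and 3 to 738 when 1 library was left out. The prefix as a term could not be fitted for demyelination, whose libraries share 1 prefix. The cause of these changes was not tested.

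Signs turned where fold changes were small. In the 4AP response olig1 became 0.25 with library totals, 0.25 with voom, 0.089 with no filter, 0.13 with exon reads, 0.043 with the replicate block, 0.44 with no filter and no 4AP control 5, and ran from -0.31 to 0.15 when 1 library was left out. olig2 became 0.13 with library totals, 0.0043 with exon reads, 0.28 with the prefix, 0.015 with the library total as a term and 0.0050 with no filter and no 4AP control 5. sox10 became -0.14 with the prefix and nkx2.2a -0.048 with the library total as a term. In the demyelination response sox6 became -0.17 with library totals, -0.31 with no filter, -0.030 with all 20 libraries, -0.40 with no filter and no demyelination control 1, and ran from -0.034 to 0.26 when 1 library was left out. tcf3b became -0.19 with voom and ran from -0.36 (without demyelination 3) to 2.63 when 1 library was left out. The difference for olig1 became -0.22 with neither demyelination control 1 nor demyelination 5, and ran from -0.30 to 2.04 when 1 library was left out.

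When 1 library was left out, the exon share of sox6 reads in 4AP minus control ran from -7.70 to 2.71 percentage points around -1.39. For the libraries as a whole, 4AP minus control was 601632 total gene reads (410521 to 757518), 8233 genes with a read (7591 to 10223) and 6.82 points of exon share (5.53 to 10.03), and these 3 passed an exact permutation test adjusted over 6 measures only without 4AP control 5, where they were 731434, 10223 and 10.03. Demyelination minus control ran from -87546 to 785118 reads, from -2949 to 1567 genes and from -0.36 to 1.301 points. Depth limits the demyelination comparison, where 6 of the 7 genes did not pass the filter.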
